A study of Arabidopsis thaliana with 12 samples.

Results

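The genes described here were high both in the libraries labelled fer and in those of the double mutant ccrfer, and low in wild type and in ccr, in main stems of Arabidopsis thaliana. They were 120 of the 18428 genes tested and of the 27655 genes listed. A gene belonged to them when it reached 1 FPKM (fragments per kilobase of transcript, scaled to library depth) in at least 3 of the 12 libraries and met 3 conditions. On the log2(FPKM + 1) scale, the lower of the fer and ccrfer means exceeded the higher of the WT and ccr means by 1 or more, a difference called the margin here. The fer and ccrfer means lay less than 2 apart, and every fer and ccrfer library was above every WT and ccr library. Chloroplast genes and 8 named genes were left out. The genes were selected on these measured levels, so the levels of the 4 genotypes, and every difference between them except ccr minus WT, are given as a description with no test.

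Messenger RNA was sequenced from the main flowering stem of plants 2 months old, all in the Col-0 background, with 3 libraries for each genotype. The genotypes were wild type (WT), ccr1-3 (ccr), fer4 (fer) and the ccr1-3/fer4 double mutant (ccrfer). CCR1 encodes cinnamoyl-CoA reductase, an enzyme of lignin synthesis, and FERONIA (FER) encodes a receptor kinase that binds RALF peptides at the cell wall. The genotype entries of ccrfer replicates 2 and 3 read ccr1-3/fer5 and ccr1-3/fer6, and the sample titles were used to group them. Whether a library came from 1 plant or from several was not given in the sources used here, so p-values measure the spread between these libraries.

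FER expression went against the label fer. FER stood at 85.9, 83.5 and 83.0 FPKM in the WT libraries, 100.4, 97.7 and 96.5 in those of ccr, 85.1, 83.1 and 84.0 in those labelled fer and 0.894, 0.159 and 1.49 in those of ccrfer. Low FER transcript was therefore seen in ccrfer, while the 120 genes were high in ccrfer and in the libraries labelled fer alike. CCR1 stood at 255.6, 230.9 and 222 FPKM in the WT libraries, 220.0, 189 and 188 in those of ccr, 354, 301 and 302 in those labelled fer and 207, 231 and 179 in those of ccrfer, so its transcript level does not by itself check the ccr1-3 label. AT2G01021, a short gene beside the ribosomal RNA genes, lay between 1.43e+06 and 1.51e+07 FPKM in the libraries labelled fer and at 6.13e+06, 113705 and 4.59e+07 in the ccrfer libraries, against 42536 to 410312 in WT and ccr. In ccrfer replicate 2 it was within the range of WT and ccr, while the rule required that library to be high for every member. The part of this gene in the members' levels was not tested. Libraries held 56884740 to 227159338 reads, and libraries of a genotype correlated across the tested genes at 0.938 (within ccrfer) or more.

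The role groups used below were formed after the values were seen, and the ER body group (9 members), the glucosinolate group (8) and the jasmonate group (7) are known from the defence of crucifers against herbivores. Glucosinolates are sulfur-containing compounds that beta-glucosidases called myrosinases split when tissue is wounded, and myrosinase-binding proteins and jacalin-related lectins associate with such enzymes. ER bodies are compartments of the endoplasmic reticulum that store beta-glucosidases. Jasmonates, hormones made after wounding, induce many of these genes. JAZ proteins repress jasmonate responses and are themselves induced by jasmonate, as are enzymes that inactivate the hormone.

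The median member stood at 1.15 FPKM in WT and 2.85 in ccr, against 14.1 in the libraries labelled fer and 11.3 in the ccrfer libraries. On the log2(FPKM + 1) scale the median over members lay between 1.09 and 1.25 in the WT libraries, 1.90 and 1.96 in those of ccr, 3.88 and 4.0 in those labelled fer, and 3.58 and 3.63 in those of ccrfer. In 26 members all 6 WT and ccr libraries were under 1 FPKM, and 11 members were listed at 0 in some of these libraries. The mean was above 100 FPKM in 16 members for the libraries labelled fer and 14 for ccrfer, while 15 members stayed under 5 FPKM in both. The filter on low values also admits genes that pass through the high genotypes alone, so the members that were under 1 FPKM elsewhere had to differ.

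The median margin was 1.35, with 17 members at 2 or more and 73 under 1.5. CYP79F1 (1.00), AT5G05600 (1.01) and AT2G28690 (1.01) were the members closest to the threshold. BGLU1 (0.99), AT1G77520 (0.99) and AT5G12050 (0.99) met every other condition and fell just short. A further 6 genes were high in both genotypes but 2 or more apart, among them MLP28, a major latex protein gene, at 0.850, 1.24 and 2.18 FPKM in the WT libraries, 95.8, 86.7 and 88.1 in those of ccr, 2685, 2698 and 2668 in those labelled fer and 584, 629 and 675 in those of ccrfer. The mirror image, genes low in both and high in WT and ccr by the same margins, held 78 genes.

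**Figure D1:**
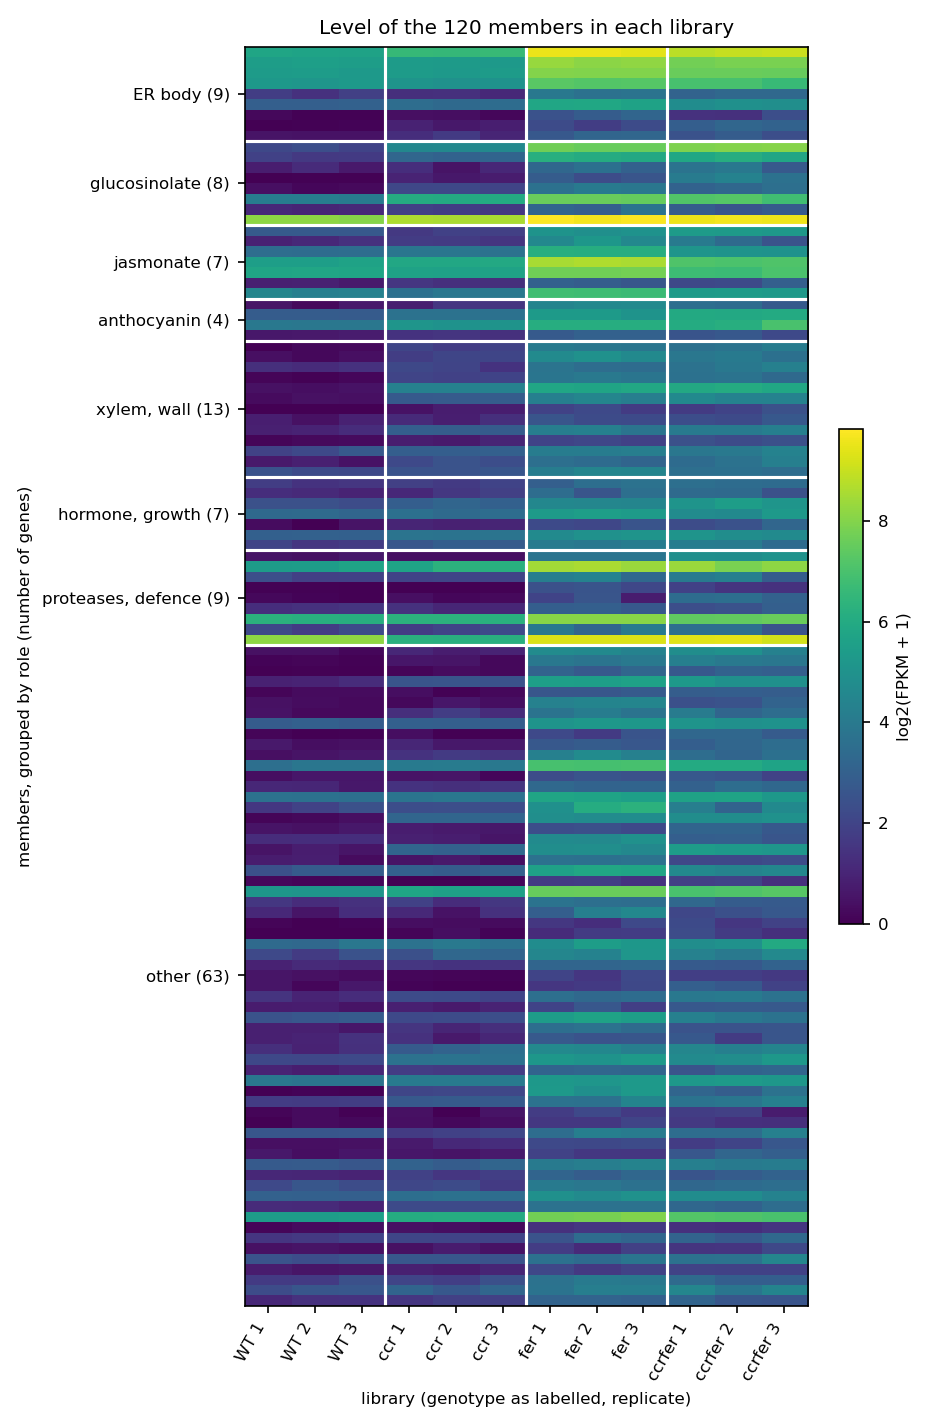
Level of the 120 members in the 12 libraries. Each row is a gene, sorted by margin within its role group, each column a library, and the colour is log2(FPKM + 1). The 6 columns on the right are brighter than the 6 on the left in every row, and the xylem and wall genes are also brighter in ccr than in WT.

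The 8 genes left out by name had the same pattern, with margins of 2.63 (VSP2) to 4.66 (PYK10). PYK10, the main beta-glucosidase of ER bodies, was at 76.5, 73.6 and 80.1 FPKM across the libraries labelled fer and 90.3, 90.4 and 92.1 in those of ccrfer, against 1.62, 1.88 and 2.38 in WT and 2.07, 1.92 and 2.21 in ccr. BGLU18, the ER body glucosidase of wounded leaves, was at 559, 495 and 523 FPKM across the libraries labelled fer and 587, 623 and 529 in those of ccrfer, against 35.8, 39.4 and 38.4 in WT and 48.0, 44.8 and 48.2 in ccr. VSP2, a vegetative storage protein gene used as a marker of jasmonate response, was at 1939.8, 1870.1 and 1906 FPKM across the libraries labelled fer and 821, 843 and 745 in those of ccrfer, against 16.1, 15.9 and 16.6 in WT and 126, 136 and 124 in ccr. Of these 3, PYK10 and BGLU18 reached similar levels in both high genotypes, while VSP2 was higher in the libraries labelled fer. The chloroplast entries ATCG00270 and ATCG00280 were listed at 0 in all 6 WT and ccr libraries and lay between 3768.5 and 7473 FPKM in the other 6. This split of the libraries is the one that defines the 120 members. Whether both sets of 6 libraries were quantified in the same run was not given in the sources used here, and a difference in quantification between the sets cannot be told apart from the genotypes. No nuclear gene was listed at 0 in all libraries of one set and at 1 FPKM or more in all of the other, in either direction. That count cannot show a difference in quantification that only shifts levels, which was not tested.

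PGL5, a 6-phosphogluconolactonase gene of the pentose phosphate pathway, had the largest margin among members (3.64). Its levels were 0.355, 0.352 and 0.131 FPKM in the WT libraries, 1.12, 0.711 and 0.984 in those of ccr, 26.0, 24.6 and 19.4 in those labelled fer and 27.1, 30 and 18.8 in those of ccrfer. AT1G54020, a GDSL-type lipase gene, was at 0.0551, 0.0872 and 0.0324 FPKM in the WT libraries, 0.498, 0.459 and 0.163 in those of ccr, 14.5, 12.6 and 14.8 in those labelled fer and 17.9, 14.8 and 13.7 in those of ccrfer. Both genes were under 2 FPKM in all WT and ccr libraries and overlapped between the 2 high genotypes. Between ccr and WT, PGL5 differed by 0.60 (SE 0.18, adjusted p = 0.0177) in limma, a call lost without WT replicate 3 or ccr replicate 1 or 3 (adjusted p of up to 0.0698) and with a pseudocount of 5 or quantile normalization (up to 0.326), and AT1G54020, with 0.37 (SE 0.144, adjusted p = 0.0586), was not called. AT4G11320, a papain-type cysteine protease gene (CP2), was at 0.419, 0.346 and 0.565 FPKM in the WT libraries, 0.320, 0.306 and 0.323 in those of ccr, 12.7, 12.8 and 13.2 in those labelled fer and 27.6, 27.3 and 31.0 in those of ccrfer. The protease gene was low in WT and ccr alike, and every ccrfer library was above every library labelled fer.

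AT1G14120, a 2-oxoglutarate-dependent oxygenase gene, was at 0, 0.0507 and 0 FPKM in the WT libraries, 0.110, 0.261 and 0.145 in those of ccr, 7.76, 5.72 and 8.53 in those labelled fer and 5.53, 7.53 and 6.85 in those of ccrfer. AT5G23820, which encodes a protein with an MD-2-related lipid recognition domain, was at 0.883, 0.974 and 1.36 FPKM in the WT libraries, 4.79, 5.05 and 4.50 in those of ccr, 45.1, 44.4 and 48.2 in those labelled fer and 38.3, 29.3 and 29.7 in those of ccrfer. AT3G28220, which encodes a TRAF-like protein, was at 0.0959, 0.214 and 0.212 FPKM in the WT libraries, 0.272, 0.0350 and 0.166 in those of ccr, 5.13, 5.2 and 5.87 in those labelled fer and 6.47, 6.72 and 6.4 in those of ccrfer. Of these 3, AT5G23820 was the gene that reached several FPKM in ccr. KCS8, a 3-ketoacyl-CoA synthase gene of very-long-chain fatty acid synthesis, was at 6.31, 7.10 and 6.2 FPKM in the WT libraries, 6.97, 6.90 and 6.65 in those of ccr, 33.2, 36.4 and 36.0 in those labelled fer and 33.2, 29.7 and 31.1 in those of ccrfer. It was flat between WT and ccr and, at a higher level, flat between the 2 other genotypes.

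**Figure D2:**
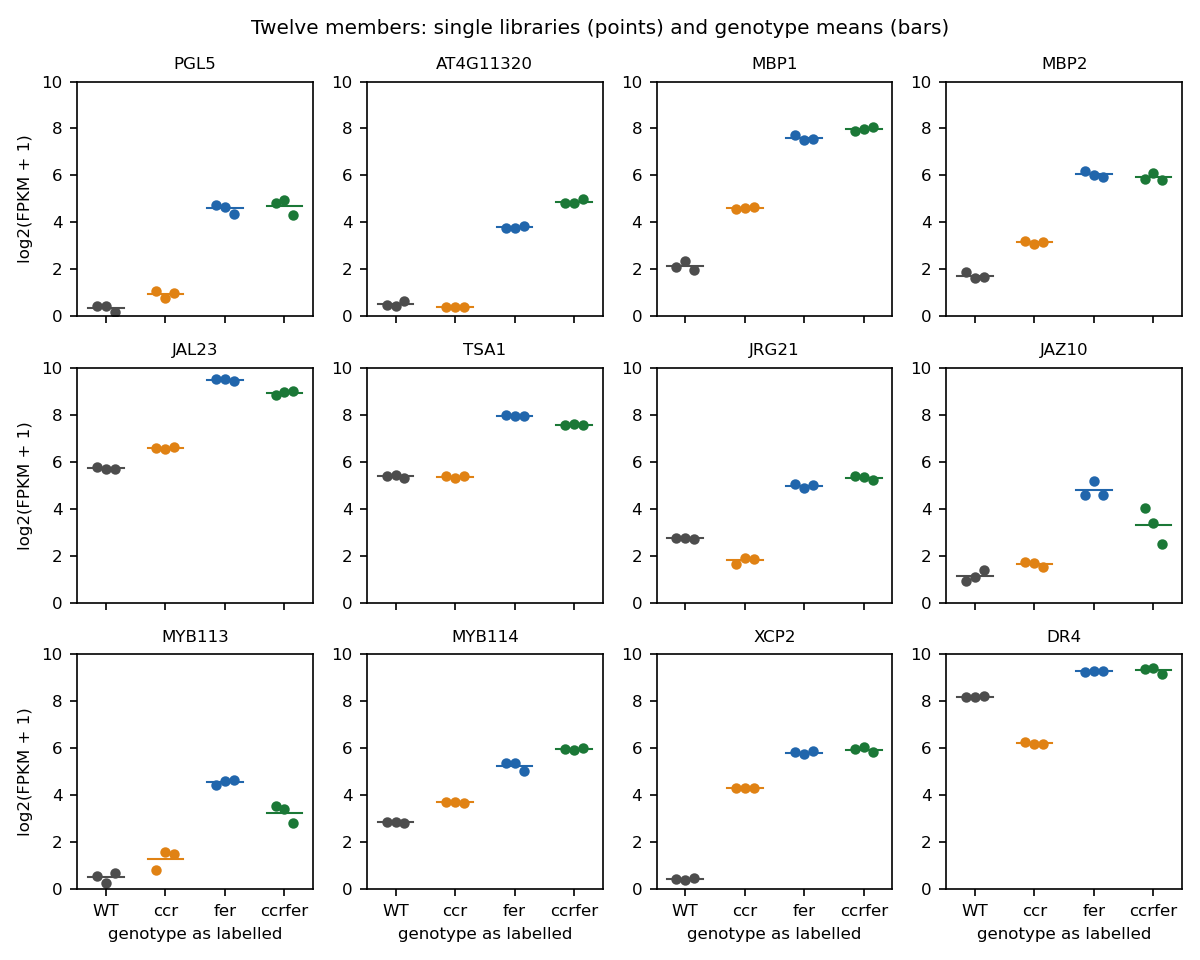
Single libraries (points) and genotype means (bars) of 12 members on the log2(FPKM + 1) scale, by genotype as labelled. In all 12 panels the 6 points on the right lie above the 6 on the left. XCP2, MBP1 and MBP2 rise from WT to ccr, JRG21 and DR4 fall from WT to ccr, and TSA1 and AT4G11320 stay level.

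The members' start regions were read from the TAIR10.1 genome of RefSeq, since genes that move together may share promoter letters. The G-box, CACGTG, is a motif that MYC-type and other bHLH and bZIP factors are known to bind, and it reads the same on both strands. It occurred within 250 bases upstream of the annotated start in 18 of the 120 members (15.0%) and in 7.39% of the 18264 tested genes with such a window. The W-box core TTGACC occurred in 10.8% of members against 12.1% of tested genes, the GCC-box GCCGCC in 0 members against 1.95%, the core CCGAC of the dehydration-responsive element in 8.33% against 13.1%, and the evening element core AATATCT in 10% against 10%, each read on both strands. The 9 ER body members and the 7 jasmonate members had no G-box in this window, while 2 of the 4 anthocyanin members had it. Shown here are the windows of PGL5 and MBP1, which have the largest margins among members with a G-box, of AT3G28220, which has a pair of boxes, and of both anthocyanin members with a G-box. Each is written 5′ to 3′ on the strand of its gene, ends at the base before the start, and has the G-box in capitals.
PGL5 (chr5:8338033-8338282, minus strand): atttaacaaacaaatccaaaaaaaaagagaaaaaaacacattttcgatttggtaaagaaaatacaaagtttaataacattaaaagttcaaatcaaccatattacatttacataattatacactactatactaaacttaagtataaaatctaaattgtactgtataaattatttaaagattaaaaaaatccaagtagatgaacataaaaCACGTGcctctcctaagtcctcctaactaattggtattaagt
MBP1 (chr1:19352792-19353041, minus strand): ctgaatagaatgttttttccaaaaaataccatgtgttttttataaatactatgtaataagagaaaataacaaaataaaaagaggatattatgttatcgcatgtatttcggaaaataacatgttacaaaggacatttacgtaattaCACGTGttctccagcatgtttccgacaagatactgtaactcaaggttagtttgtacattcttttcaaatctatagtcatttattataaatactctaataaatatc
AT3G28220 (chr3:10523931-10524180, plus strand): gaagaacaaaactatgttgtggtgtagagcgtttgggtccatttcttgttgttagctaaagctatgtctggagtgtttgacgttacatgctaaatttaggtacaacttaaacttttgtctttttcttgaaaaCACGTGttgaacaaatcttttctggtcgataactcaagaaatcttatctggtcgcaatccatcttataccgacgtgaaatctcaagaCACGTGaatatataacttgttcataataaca
MYB114 (chr1:24757048-24757297, plus strand): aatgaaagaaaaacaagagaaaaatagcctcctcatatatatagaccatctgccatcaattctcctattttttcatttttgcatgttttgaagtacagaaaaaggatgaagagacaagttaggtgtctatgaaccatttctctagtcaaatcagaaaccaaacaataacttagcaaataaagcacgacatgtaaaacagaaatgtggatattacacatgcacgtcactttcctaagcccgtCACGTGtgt
CHIL (chr5:1563036-1563285, plus strand): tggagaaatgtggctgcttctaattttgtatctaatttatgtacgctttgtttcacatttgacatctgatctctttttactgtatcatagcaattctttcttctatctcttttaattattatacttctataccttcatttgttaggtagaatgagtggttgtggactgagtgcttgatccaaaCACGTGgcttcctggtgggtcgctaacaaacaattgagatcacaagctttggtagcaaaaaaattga
Counted from the start, with -1 as the base before it, the box began at -42 in PGL5, -105 in MBP1, -118 and -31 in AT3G28220, -9 in MYB114 and -67 in CHIL. A match describes letters in a window and does not show binding.

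The rule capped the levels of WT and ccr alike and set no condition on the difference between them, which was tested with limma over all tested genes. The same WT and ccr values entered the rule, so the counts over members are a description. Of the 120 members, 58 were called higher in ccr than in WT (48.3%), where 24.0% of all tested genes were called higher. A further 7 members were called lower (5.83%), against 19.8% of all tested genes, and 55 were not called. The ccr mean was above the WT mean in 95 members (79.2%) and in 52.2% of tested genes. The median difference was 0.36 over members and 0.03 over tested genes. Of the 26 members under 1 FPKM in all WT and ccr libraries, 3 were called higher and 0 lower, and of the other 94 members 55 were called higher. Of the 65 calls, 41 held under all 22 alternatives, and 17 were lost when some single library was left out.

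XCP2 showed the largest rise among members, at 3.87 (SE 0.0744, adjusted p = 6.55e-12) by limma. Next were AT5G40020, a thaumatin-family gene, at 2.94 (SE 0.0963, adjusted p = 5.46e-10), and GL22, a germin-like protein gene, at 2.61 (SE 0.124, adjusted p = 1.19e-08). MBP1 rose by 2.45 (SE 0.0864, adjusted p = 1.02e-09) and CSLA10, a cellulose synthase-like gene, by 2.44 (SE 0.117, adjusted p = 1.27e-08). In all 5, each ccr library was above each WT library, and the call held under every alternative. AT5G40020 was at 0.109, 0.162 and 0.321 FPKM in the WT libraries, 8.24, 8.25 and 8.03 in those of ccr, 28.2, 25.6 and 26.6 in those labelled fer and 27.1, 27.4 and 30.4 in those of ccrfer. GL22 was at 0.415, 0.743 and 0.460 FPKM in the WT libraries, 8.34, 7.35 and 9.43 in those of ccr, 27.0, 28.3 and 23.2 in those labelled fer and 41.9, 38.2 and 34.9 in those of ccrfer. CSLA10 was at 0.237, 0.351 and 0.317 FPKM in the WT libraries, 5.80, 6.09 and 6.35 in those of ccr, 17.9, 21.2 and 17.2 in those labelled fer and 24.1, 19.6 and 19.4 in those of ccrfer. On the log2(FPKM + 1) scale these 3 genes had a larger step from WT to ccr than from ccr to the libraries labelled fer.

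The 7 members that fell from WT to ccr were DR4, JRG21, AT5G55620, AT5G05600, AT1G31710, FAMT and JAL34. DR4, a Kunitz-type protease inhibitor gene named as repressed by drought, fell most, with a difference of -1.98 (SE 0.0634, adjusted p = 4.56e-10). It was at 288, 288 and 295 FPKM in the WT libraries, 74.8, 72.0 and 72.3 in those of ccr, 613, 619.7 and 621 in those labelled fer and 666, 678 and 572 in those of ccrfer. It was therefore lowest in ccr, and in ccrfer, which is labelled as carrying ccr1-3 too, it was at the level of the libraries labelled fer. AT5G55620, an uncharacterized gene, differed by -0.76 (SE 0.226, adjusted p = 0.0170), AT1G31710, a copper amine oxidase gene, by -0.53 (SE 0.146, adjusted p = 0.0107), FAMT, a farnesoic acid methyltransferase gene, by -0.43 (SE 0.140, adjusted p = 0.0273) and JAL34 by -0.40 (SE 0.146, adjusted p = 0.0440). The calls of these 4 were lost with a pseudocount of 5. JAL34 also lost its call without any of 7 libraries in turn (WT replicates 1 and 3, each ccr replicate, fer replicate 3 or ccrfer replicate 2), with an adjusted p of up to 0.168. FAMT lost it without WT replicate 2 or 3 or ccr replicate 1 or 2 (adjusted p of up to 0.104), and AT5G55620 without ccr replicate 1 (adjusted p = 0.0672). DR4, JRG21 and AT5G05600 kept it throughout.

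**Figure D3:**
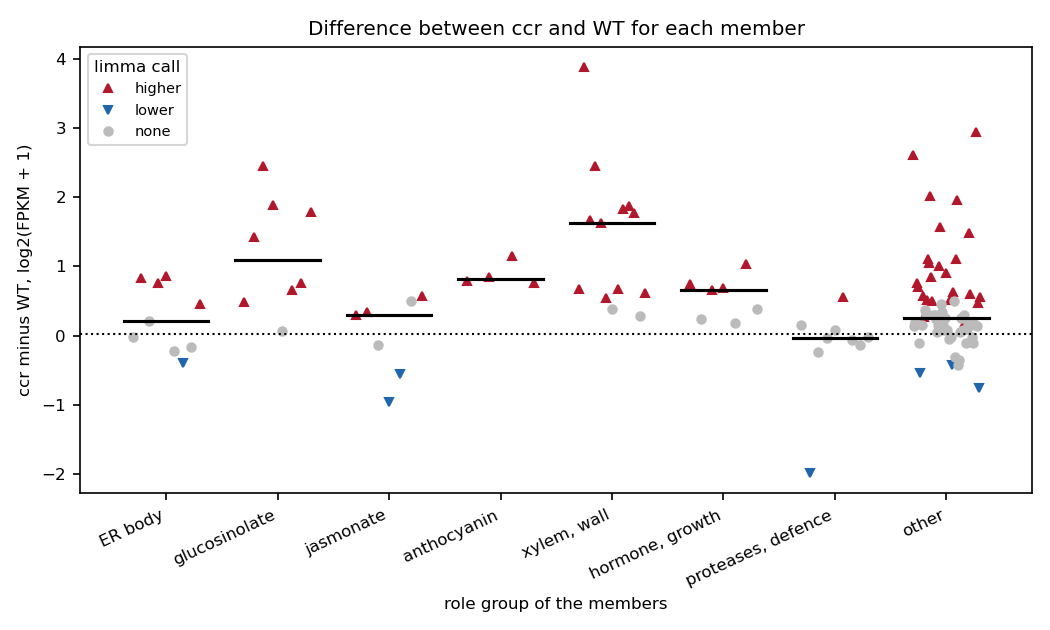
Difference between ccr and WT for each member on the log2(FPKM + 1) scale, by role group. Triangles mark limma calls at an adjusted p under 0.05, bars mark group medians, and the dotted line is the median of all tested genes (0.03). The groups were formed after the values were seen, with the peptidase genes XCP1 and XCP2 placed under xylem and wall. The xylem and wall genes have the highest median (1.63). The protease and defence genes have a median of -0.03 and include DR4 at -1.98.

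The ER body group, which includes lectin genes, made up 9 of the members. Lectin genes outside this group, such as AT1G52000, are not counted here. Of 17 tested genes on the ER body list, 9 were members and 4 were among those left out by name, together 76.5%. Of all 18428 tested genes, 120 were members and 8 were left out by name. The list was written with earlier results of these data known and the rule set membership, so the share is a description. JAL23, a jacalin-related lectin gene, was the most abundant of the 9, at 53.4, 51.4 and 50.2 FPKM in the WT libraries, 94.5, 91.6 and 96.8 in those of ccr, 742, 735 and 688 in those labelled fer and 453, 494 and 522 in those of ccrfer. JR1, the lectin JAL35 known as jasmonate-responsive, was at 43.8, 46.1 and 43.5 FPKM in the WT libraries, 40.5, 40.4 and 37.7 in those of ccr, 320.2, 278 and 290.0 in those labelled fer and 209, 229 and 230.2 in those of ccrfer. PBP1, which encodes a lectin that binds PYK10, was at 36.6, 35.0 and 38.0 FPKM in the WT libraries, 32.6, 30.2 and 31.3 in those of ccr, 158, 147 and 148 in those labelled fer and 125, 124 and 96.4 in those of ccrfer. In all 3 the ccrfer libraries were below the libraries labelled fer and far above WT and ccr.

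TSA1, a relative of the ER body protein NAI2, was at 40.7, 42.4 and 38.4 FPKM in the WT libraries, 40.6, 39.1 and 40.7 in those of ccr, 254, 247 and 246 in those labelled fer and 190.3, 192 and 187 in those of ccrfer. MEB1, a membrane protein of ER bodies, was at 6.77, 6.89 and 7.25 FPKM in the WT libraries, 10.3, 9.39 and 10.1 in those of ccr, 55.4, 56.6 and 49.9 in those labelled fer and 26.8, 29.4 and 28.2 in those of ccrfer. NAI1, the bHLH factor needed for ER bodies in seedlings, was low throughout, at 0.148, 0.0366 and 0.0272 FPKM in the WT libraries, 0.319, 0.278 and 0.137 in those of ccr, 4.53, 6.28 and 8.17 in those labelled fer and 1.63, 1.60 and 4.11 in those of ccrfer. NAI1 varied more between libraries than the lectin genes, and fer replicate 3 was its highest. JAL34 was at 2.44, 1.61 and 2.64 FPKM in the WT libraries, 1.51, 1.56 and 1.22 in those of ccr, 14.2, 11.6 and 12.4 in those labelled fer and 7.81, 9.02 and 8.90 in those of ccrfer. JAL22 was at 0, 0.0353 and 0.0556 FPKM in the WT libraries, 0.923, 0.556 and 0.766 in those of ccr, 3.71, 2.42 and 3.78 in those labelled fer and 6.72, 8.45 and 7.57 in those of ccrfer, and was the only gene of the 9 whose ccrfer mean exceeded that of the libraries labelled fer. The GDSL-type lipase gene AT1G54010 (GLL23) lay between 4.13 and 8.41 FPKM in the 6 high libraries and between 0.405 and 2.19 in the other 6.

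Between ccr and WT, 4 of the 9 ER body members were called higher, 1 lower and 4 neither way by limma, where 24.0% of all tested genes were higher and 19.8% lower. JAL23 differed by 0.86 (SE 0.0605, adjusted p = 3.53e-07), MEB1 by 0.45 (SE 0.0740, adjusted p = 0.000357) and TSA1 by -0.01 (SE 0.0488, adjusted p = 0.854). JR1 and JAL34 overlap on opposite strands, and MEB1 also overlaps a gene on the other strand. The kit kept strand, per the labels' protocols, but whether counting used it was not given in the sources used here.

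Glucosinolate genes gave 8 members. MBP1 and MBP2 encode myrosinase-binding proteins, and had 2 of the 5 largest margins (3.00 and 2.76). MBP1 was at 3.35, 4.09 and 2.97 FPKM in the WT libraries, 22.6, 23.2 and 24.0 in those of ccr, 207, 183 and 189 in those labelled fer and 239, 253 and 264 in those of ccrfer. MBP2 was at 2.72, 2.12 and 2.17 FPKM in the WT libraries, 8.36, 7.47 and 7.89 in those of ccr, 72.1, 64.6 and 60.7 in those labelled fer and 56.6, 67.9 and 54.5 in those of ccrfer. Both rose from WT to ccr and again to the high genotypes, and MBP2 differed between ccr and WT by 1.42 (SE 0.106, adjusted p = 5.52e-07). CYP79F1, which converts elongated methionine derivatives in aliphatic glucosinolate synthesis, was the most abundant member, at 280.5, 281 and 259.8 FPKM in the WT libraries, 392, 379.7 and 382 in those of ccr, 906, 795 and 877 in those labelled fer and 746, 801 and 768 in those of ccrfer. FMO GS-OX1, which oxidises the sulfur of aliphatic side chains, was at 17.1, 17.1 and 15.1 FPKM in the WT libraries, 65.1, 62.5 and 62.4 in those of ccr, 189.6, 193 and 179.6 in those labelled fer and 141, 148 and 111 in those of ccrfer. MYB76, a regulator of aliphatic glucosinolate genes, was at 0.332, 0.135 and 0.200 FPKM in the WT libraries, 3.23, 3.33 and 3.06 in those of ccr, 11.7, 15.3 and 14.0 in those labelled fer and 7.51, 8.70 and 11.1 in those of ccrfer. In these 3 genes the ccr libraries lay between WT and the high genotypes without overlap.

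The differences between ccr and WT were 0.49 (SE 0.0641, adjusted p = 6.39e-05) for CYP79F1, 1.89 (SE 0.0934, adjusted p = 1.68e-08) for FMO GS-OX1 and 1.79 (SE 0.151, adjusted p = 1.71e-06) for MYB76. GSTF11, a glutathione S-transferase gene of the aliphatic pathway, was at 1.20, 0.998 and 1.19 FPKM in the WT libraries, 2.67, 2.41 and 2.00 in those of ccr, 8.02, 6.89 and 12.3 in those labelled fer and 6.51, 4.87 and 6.0 in those of ccrfer. CYP81F4, which hydroxylates indole glucosinolates, was at 0, 0.0325 and 0.0483 FPKM in the WT libraries, 0.975, 0.551 and 0.700 in those of ccr, 6.2, 3.91 and 5.02 in those labelled fer and 16.1, 19.3 and 11.7 in those of ccrfer. IGMT5, a methyltransferase of indole glucosinolates, was at 0.737, 1.31 and 0.595 FPKM in the WT libraries, 1.45, 0.414 and 1.16 in those of ccr, 8.75, 11.2 and 7.38 in those labelled fer and 12.5, 14.4 and 5.69 in those of ccrfer. CYP81F4 was higher in every ccrfer library than in any library labelled fer, while IGMT5 overlapped between them. IGMT5 was also the only gene of the 8 not called between ccr and WT, and the other 7 were called higher by limma. In this contrast 24.0% of all tested genes were called higher. The call of GSTF11 was lost in 3 of the 22 alternatives (adjusted p of up to 0.0924), among them without ccr replicate 1 (adjusted p = 0.0546). That of CYP81F4 was lost in 1 alternative (adjusted p = 0.232).

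The aliphatic list held 15 further tested genes that were neither members nor left out. The members of the list are not in this count. In the libraries labelled fer against WT, 15 of the 15 were called higher and 0 lower, where 28.4% of all tested genes were called higher. In ccrfer against ccr, 14 were called higher and 1 lower (MYB28, another regulator), where 10.4% of all tested genes were called higher. Mean FPKM of MYB29 was 9.77 in WT and 97.6 in ccr, against 189.6 in the libraries labelled fer and 189.3 in the ccrfer libraries, so that its ccr level already came within 1 log2 unit. Among 11 further myrosinase and breakdown genes, 7 were called higher and 2 lower in the first contrast, and 8 higher and 1 lower in the second. TGG2, a myrosinase gene, had means of 0.518 FPKM in WT and 94.2 in ccr, against 110.4 in the libraries labelled fer and 242.2 in the ccrfer libraries.

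Jasmonate genes gave 7 members, of which 3 are JAZ repressors and 4 are enzymes that turn the hormone over. TIFY7 (JAZ9) was at 44.3, 44.9 and 50.2 FPKM in the WT libraries, 58.9, 59.1 and 60.1 in those of ccr, 371, 398 and 384 in those labelled fer and 139, 132 and 139 in those of ccrfer. JAZ6 was at 53.2, 55.4 and 53.6 FPKM in the WT libraries, 49.5, 48.4 and 50.0 in those of ccr, 208, 204 and 217 in those labelled fer and 105, 104 and 131 in those of ccrfer. JAZ10 was at 0.911, 1.16 and 1.64 FPKM in the WT libraries, 2.36, 2.23 and 1.86 in those of ccr, 23.1, 35.5 and 22.7 in those labelled fer and 15.5, 9.63 and 4.72 in those of ccrfer. In all 3 each ccrfer library was below each library labelled fer. JAZ10 spread widely in ccrfer, where replicate 3 stood lowest.

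JRG21, an oxygenase gene of the group that hydroxylates jasmonic acid (JOX3), was at 5.83, 5.82 and 5.64 FPKM in the WT libraries, 2.13, 2.78 and 2.63 in those of ccr, 32.2, 28.5 and 31.3 in those labelled fer and 40.7, 39.7 and 36.6 in those of ccrfer. AT5G05600, of the same group (JOX2), was at 21.9, 18.1 and 18.7 FPKM in the WT libraries, 11.2, 13.7 and 14.2 in those of ccr, 112, 109 and 103 in those labelled fer and 40.1, 41.1 and 39.2 in those of ccrfer. Both were lower in ccr than in WT, with differences of -0.95 (SE 0.0918, adjusted p = 5.29e-06) and -0.55 (SE 0.0917, adjusted p = 0.000436), so their ccr libraries were the lowest of all. ILL6, an amidohydrolase gene acting on jasmonate conjugates, was at 10.4, 10.2 and 10.3 FPKM in the WT libraries, 13.5, 13.4 and 12 in those of ccr, 70.1, 68.1 and 69.5 in those labelled fer and 33.8, 32.2 and 31.4 in those of ccrfer. CYP94B1, which oxidises jasmonoyl-isoleucine, was at 0.837, 0.879 and 0.627 FPKM in the WT libraries, 1.91, 1.57 and 1.47 in those of ccr, 7.19, 6.50 and 5.16 in those labelled fer and 3.34, 3.59 and 6.80 in those of ccrfer. In the limma test 3 of the 7 were called higher in ccr than in WT (ILL6, TIFY7 and CYP94B1), 2 lower and 2 neither way, where 24.0% of all tested genes were higher and 19.8% lower. The call of CYP94B1 was lost without any of 8 libraries in turn (all WT and ccr replicates, and fer replicates 1 and 2), with an adjusted p of up to 0.139.

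JRG21 was the only one of the 7 whose ccrfer mean exceeded that of the libraries labelled fer, and the median ccrfer minus fer difference was -1.07. Among 8 further JAZ genes, the comparison of the libraries labelled fer with WT called 7 higher and that of ccrfer with ccr called 3, with 0 lower in each. Of all tested genes, 28.4% were called higher and 23.2% lower in the first contrast, and 10.4% and 10.1% in the second. Mean FPKM of JAZ5 was 10.8 in WT and 26.4 in ccr, against 99.3 in the libraries labelled fer and 34.5 in the ccrfer libraries. Of 17 further synthesis and turnover genes, 12 were called higher and 2 lower in the first contrast and 8 higher and 0 lower in the second. Of 14 tested jasmonate and wound output genes, 3 were among those left out by name (VSP1, VSP2 and ARGAH2) and are not counted here. The other 11 were mixed, with 6 higher and 4 lower in the first contrast and 3 higher and 5 lower in the second. All 16 genes of the list summed to 381 to 390 FPKM in WT and 466 to 477 in ccr. Their sums were 2826 to 2891 in the libraries labelled fer and 1197 to 1338 in ccrfer. MYC2, the bHLH activator of jasmonate responses, had means of 110.1, 110.5, 194.5 and 81.4 FPKM in WT, ccr, the libraries labelled fer and ccrfer, and so was not high in ccrfer.

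Regulators of anthocyanins, the red and purple flavonoid pigments, gave 4 members. MYB113, an activator of anthocyanin genes, was at 0.484, 0.197 and 0.586 FPKM in the WT libraries, 0.749, 1.94 and 1.83 in those of ccr, 20.8, 23.3 and 23.9 in those labelled fer and 10.7, 9.69 and 5.93 in those of ccrfer. MYB114, its neighbour on chromosome 1, was at 6.23, 6.29 and 6.08 FPKM in the WT libraries, 11.9, 12.1 and 11.7 in those of ccr, 39.8, 40.3 and 31.7 in those labelled fer and 61.1, 60.2 and 63.1 in those of ccrfer. MYB113 was higher in the libraries labelled fer and MYB114 higher in ccrfer, without overlap in either case. GL3, a bHLH partner of such MYB factors, was at 0.570, 0.590 and 0.674 FPKM in the WT libraries, 1.72, 1.87 and 1.57 in those of ccr, 5.97, 7.23 and 7.20 in those labelled fer and 4.81, 5.5 and 3.45 in those of ccrfer. CHIL, a chalcone isomerase-like gene that promotes flavonoid synthesis, was at 14.1, 13.8 and 13.9 FPKM in the WT libraries, 33.6, 31.6 and 31.8 in those of ccr, 67.8, 68.1 and 68.4 in those labelled fer and 65.2, 70.9 and 127 in those of ccrfer. CHIL stood higher in ccrfer replicate 3 than in any other library, and the other ccrfer libraries were at the level of those labelled fer.

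All 4 were called higher in ccr than in WT by limma, by 0.79 (SE 0.234, adjusted p = 0.0165) for MYB113, 0.84 (SE 0.0858, adjusted p = 8.15e-06) for MYB114, 0.76 (SE 0.154, adjusted p = 0.00179) for GL3 and 1.16 (SE 0.183, adjusted p = 0.000278) for CHIL. The call of MYB113 was lost without WT replicate 2, ccr replicate 2 or ccr replicate 3 (adjusted p of up to 0.0723). The 19 tested genes of the flavonoid and anthocyanin list held none of the 4. The comparison of ccr with WT called 4 of these higher and 13 lower, that of the libraries labelled fer with WT called 14 higher and 2 lower, and that of ccrfer with ccr called 15 higher and 0 lower. Of all tested genes, these contrasts called 24.0%, 28.4% and 10.4% higher and 19.8%, 23.2% and 10.1% lower. MYB90, the gene beside MYB114, had means of 93.8 FPKM in WT and 9.26 in ccr, against 43.9 in the libraries labelled fer and 39.6 in the ccrfer libraries. Neighbouring MYB genes of the same cluster therefore differed in pattern, with MYB90 highest in WT.

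Xylem and wall genes gave 13 members. XCP2, a cysteine peptidase of dying tracheary elements, was at 0.366, 0.293 and 0.404 FPKM in the WT libraries, 18.8, 18.7 and 19.0 in those of ccr, 55.6, 52.5 and 57.8 in those labelled fer and 60.6, 64.7 and 56.5 in those of ccrfer. XCP1, its relative, was at 0.801, 0.971 and 1.37 FPKM in the WT libraries, 6.70, 6.53 and 6.18 in those of ccr, 17.5, 18.2 and 12.6 in those labelled fer and 15.1, 15.6 and 17.9 in those of ccrfer. LAC11, a laccase of lignin polymerisation, was at 0.0192, 0.143 and 0.191 FPKM in the WT libraries, 3.16, 2.40 and 2.87 in those of ccr, 15.4, 14.0 and 13.2 in those labelled fer and 11.2, 12.5 and 16.7 in those of ccrfer. These genes were near 0 in WT, intermediate in ccr and highest in the other 6 libraries. TED6, a secondary wall gene of tracheary elements, was at 0.333, 0.166 and 0.309 FPKM in the WT libraries, 2.48, 3.18 and 3.11 in those of ccr, 25.1, 30.2 and 24.1 in those labelled fer and 13.8, 15.5 and 11.3 in those of ccrfer. AT4G08160, a xylanase gene (XYN3), was at 0.101, 0.0413 and 0.123 FPKM in the WT libraries, 3.07, 2.70 and 2.89 in those of ccr, 13.2, 14.7 and 13.3 in those labelled fer and 11.8, 12.4 and 9.26 in those of ccrfer. NAC007, the vessel regulator VND4, was at 0.0191, 0 and 0 FPKM in the WT libraries, 0.406, 0.713 and 0.703 in those of ccr, 2.85, 3.47 and 2.22 in those labelled fer and 2.28, 2.89 and 4.44 in those of ccrfer.

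By limma 11 of the 13 were called higher in ccr than in WT and 0 lower, with a median of 1.63. Over all tested genes 24.0% were called higher and 19.8% lower. The call of NAC007 was lost without WT replicate 2 or ccr replicate 2 or 3 (adjusted p of up to 0.0637), and that of AT2G45220 without any of 8 libraries in turn, among them every WT replicate and ccr replicates 1 and 2 (up to 0.172). The xylem and fibre marker list was also higher in ccr. Its 14 genes, of which XCP1 and XCP2 are members, summed to 14.3 to 18.2 FPKM in the WT libraries, 564 to 571 in those of ccr, 453 to 472 in those labelled fer and 1073 to 1087 in those of ccrfer. The sums of the libraries labelled fer were thus below those of ccr, unlike the members. Of the 12 others, 12 were called higher in ccr against WT, 12 with the libraries labelled fer against WT, and 11 with ccrfer against ccr, with 0 lower in each. These contrasts called 24.0%, 28.4% and 10.4% of all tested genes higher, and 19.8%, 23.2% and 10.1% lower. Markers that define the wood of a stem were thus low in WT. In these whole-stem samples fewer cells of a type and less RNA per cell cannot be told apart, and the part of cell composition in the members' levels was not tested.

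Cambium markers summed to 42.6 to 44.1 FPKM in WT and 133.9 to 140.5 in ccr, against 142.8 to 145.9 in the libraries labelled fer and 146.3 to 181.1 in the ccrfer libraries. Epidermis markers summed to 113.1 to 118.9 in WT and 151.0 to 155.7 in ccr, against 215.5 to 237.0 in the libraries labelled fer and 227.5 to 237.7 in the ccrfer libraries. Meristem and division markers summed to 106.8 to 111.5 in WT and 157.3 to 163.1 in ccr, against 183.8 to 211.8 in the libraries labelled fer and 180.8 to 206.9 in the ccrfer libraries. In these 3 lists the libraries labelled fer and ccrfer were all above WT and ccr, and their part in the result was not tested. Phloem markers were highest in WT (821 to 865). Seed and silique markers summed to 174 to 190 FPKM in the libraries labelled fer but to 0 to 1.28 in ccrfer, and so did not follow the 120 genes. Leaf photosynthesis markers were at 5671 to 6242 in the libraries labelled fer, 2607 to 3401 in ccrfer, 3249 to 3532 in WT and 2974 to 3226 in ccr. Flower and pollen markers summed to at most 8.42 and root markers to at most 0.15 FPKM in any library, with EXPA7 and COBL9 listed at 0 in all.

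Of the remaining xylem and wall members, AT2G45220 and AT2G47670, of the pectin methylesterase inhibitor family, AT1G23460, of the pectin lyase family, and AT5G51890, a peroxidase gene, lay between 2.73 and 18.3 FPKM in the 6 high libraries. XTH9, a xyloglucan-modifying enzyme gene, was at 2.80, 3.55 and 5.67 FPKM in the WT libraries, 6.61, 6.58 and 7.09 in those of ccr, 16.6, 16.5 and 17.3 in those labelled fer and 14.1, 14.5 and 19.7 in those of ccrfer. PGIP2, an inhibitor of fungal polygalacturonases, was at 4.53, 3.66 and 3.36 FPKM in the WT libraries, 4.72, 4.64 and 5.22 in those of ccr, 17.1, 21.4 and 20.7 in those labelled fer and 11.0, 11.2 and 10.3 in those of ccrfer. PGIP2 and AT2G47670 were the pair not called between ccr and WT.

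Growth and hormone regulators gave 7 members. IAA7, a repressor of auxin responses, was at 9.24, 9.57 and 8.33 FPKM in the WT libraries, 11.2, 9.51 and 10.5 in those of ccr, 40.1, 44.7 and 40.7 in those labelled fer and 25.8, 24.3 and 37.7 in those of ccrfer. ARR7, a response regulator induced by cytokinin, was at 7.13, 7.23 and 7.13 FPKM in the WT libraries, 12.8, 12.5 and 12.9 in those of ccr, 25.1, 30.6 and 33.3 in those labelled fer and 33.3, 27.3 and 25.2 in those of ccrfer. HWS, a kelch-repeat gene of organ growth, was at 3.02, 1.91 and 2.3 FPKM in the WT libraries, 5.17, 6.62 and 6.10 in those of ccr, 16.0, 14.2 and 16.6 in those labelled fer and 16.3, 15.9 and 9.81 in those of ccrfer. IAA7 was not called between WT and ccr, while ARR7 and HWS rose by 0.75 (SE 0.114, adjusted p = 0.000214) and 1.04 (SE 0.184, adjusted p = 0.000658). RAX2, a MYB gene of axillary meristems, and AGL19, a MADS-box gene that promotes flowering, lay between 4.36 and 12.1 FPKM in the 6 high libraries and were not called between ccr and WT. RTFL19 lost its call without WT replicate 1 or 2 or any ccr replicate (adjusted p of up to 0.134). AT2G46640, for which the RefSeq annotation gives Tiller Angle Control 1 as a synonym and a NAD-dependent deacetylase-like protein as product, was at 4.36, 4.42 and 3.83 FPKM in the WT libraries, 6.57, 8.17 and 7.07 in those of ccr, 22.1, 21.6 and 21.1 in those labelled fer and 32.5, 43.2 and 34.2 in those of ccrfer. RTFL19, a ROTUNDIFOLIA-like gene, lay between 0 and 1.01 FPKM in WT and ccr and between 3.30 and 8.58 in the other 6 libraries.

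Protease, inhibitor and defence genes gave 9 members, and of these 1 was called higher in ccr than in WT, 1 lower and 7 neither way. In this contrast 24.0% of all tested genes were called higher and 19.8% lower. AT2G43530, which encodes a knottin-type defence peptide, was the gene called higher, at 41.1, 41.8 and 50.6 FPKM in the WT libraries, 50.4, 78.6 and 72.3 in those of ccr, 351, 384 and 327 in those labelled fer and 328, 229 and 284 in those of ccrfer. Its call was lost without WT replicate 1 or 2 or ccr replicate 2 or 3 (adjusted p of up to 0.0709). AT2G39850, a subtilisin-type protease gene, was at 75.7, 72.3 and 71.0 FPKM in the WT libraries, 79.0, 79.5 and 74.4 in those of ccr, 266, 272 and 267 in those labelled fer and 169.8, 174 and 193 in those of ccrfer. HCHIB, the basic chitinase, was at 3.39, 2.40 and 3.78 FPKM in the WT libraries, 2.31, 3.09 and 3.67 in those of ccr, 14.1, 8.31 and 15.4 in those labelled fer and 11.0, 11.1 and 4.73 in those of ccrfer. AT2G39850 held tightly within each genotype, while HCHIB varied by library. THI2.1, a thionin gene induced by jasmonate, was at 0.172, 0.0642 and 0 FPKM in the WT libraries, 0.313, 0.125 and 0.178 in those of ccr, 2.98, 4.98 and 0.677 in those labelled fer and 10.1, 10.7 and 7.23 in those of ccrfer. Its ccrfer libraries were all above those labelled fer, and fer replicate 3 stood lowest of the 6. AT2G38870, a potato-type protease inhibitor gene, was at 4.18, 2.64 and 2.70 FPKM in the WT libraries, 2.95, 3.17 and 3.01 in those of ccr, 17.5, 19.7 and 9.06 in those labelled fer and 15.1, 18.0 and 6.17 in those of ccrfer. It was lowest in replicate 3 of both high genotypes. MC7, a metacaspase gene, and scpl30, a carboxypeptidase-like gene, lay between 1.61 and 6.91 FPKM in the 6 high libraries.

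The other 63 members had no shared role. Families were counted by the product text of the annotation over all members, those of the role groups included. GDSL-type lipases, alpha/beta-hydrolases, peroxidases and uncharacterized proteins counted 4 members each. The bHLH factors, mannose-binding lectins and 2-oxoglutarate-dependent oxygenases counted 3 each. Of these, AT1G54010, AT5G51890, NAI1, GL3, JR1, JAL34 and AT5G05600 stood in role groups. AT4G17470, an alpha/beta-hydrolase gene, was at 0.367, 0.248 and 0.184 FPKM in the WT libraries, 0.162, 0.522 and 0.277 in those of ccr, 19.1, 20.5 and 21.1 in those labelled fer and 4.32, 4.73 and 7.81 in those of ccrfer. The other hydrolases, AT1G19190, AT5G42930 and AT1G78210, lay between 1.51 and 19.9 FPKM in the 6 high libraries. AT2G03980, a GDSL-type lipase gene, was at 4.28, 6.09 and 6.21 FPKM in the WT libraries, 7.06, 6.35 and 7.40 in those of ccr, 48.8, 56.0 and 53.1 in those labelled fer and 22.7, 19.8 and 22.5 in those of ccrfer, and AT1G54790 of the same family had no library above 10.1. AT4G29930, a bHLH gene, was at 0.680, 0.764 and 0.226 FPKM in the WT libraries, 0.432, 0.60 and 0.283 in those of ccr, 11.8, 11.4 and 11.9 in those labelled fer and 3.23, 3.33 and 3.84 in those of ccrfer. Among the oxygenases, AT1G06620 was at 12.2, 11.7 and 11.0 FPKM in the WT libraries, 12.8, 13.9 and 12.1 in those of ccr, 54.1, 51.6 and 45.1 in those labelled fer and 49.1, 50.4 and 36.6 in those of ccrfer.

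AT2G16980, a major facilitator transporter gene, was at 0.317, 0.434 and 0.565 FPKM in the WT libraries, 1.69, 2.22 and 1.77 in those of ccr, 18.4, 25.5 and 18.6 in those labelled fer and 10.5, 8.10 and 11.4 in those of ccrfer. AT1G26390, a berberine-type oxidase gene, was at 0.277, 0.506 and 0.517 FPKM in the WT libraries, 0.431, 0.481 and 0.118 in those of ccr, 3.86, 4.88 and 4.37 in those labelled fer and 5.46, 4.88 and 2.84 in those of ccrfer. AT3G20370, another TRAF-like gene, was at 0.103, 0 and 0.0284 FPKM in the WT libraries, 0.277, 0.00939 and 0.0536 in those of ccr, 3.47, 2.18 and 4.83 in those labelled fer and 8.65, 8.85 and 6.02 in those of ccrfer. AT2G16980 was the only gene of these 3 with every ccr library above every WT library and every library labelled fer above every ccrfer library. DOT1, a glycine-rich protein gene, was at 2.00, 2.85 and 4.43 FPKM in the WT libraries, 4.03, 4.16 and 3.95 in those of ccr, 29.5, 66.4 and 79.1 in those labelled fer and 17.6, 7.66 and 24.7 in those of ccrfer, with the libraries labelled fer spread from 29.5 to 79.1. AT5G36920 spread likewise, from 6.66 to 22.9 in those libraries.

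Some members were neighbours on their chromosome. With at most 3 genes between them, 21 members fell into 10 groups. AT1G52000, MBP2 and MBP1 lay at chr1:19333088-19352791 (TAIR10.1), and AT1G52000, a mannose-binding lectin gene, was at 10.9, 13.3 and 13.3 FPKM in the WT libraries, 15.4, 16.0 and 14.4 in those of ccr, 125, 121 and 123 in those labelled fer and 63.9, 63.8 and 50.5 in those of ccrfer. MYB113 and MYB114 lay at chr1:24753589-24758953, and JAL22 and JAL23 at chr2:16414034-16422158. The lectin genes JAL34 and JR1 lay at chr3:5592491-5599224. Neighbours were often of the same family but at different levels. JAL23 stood far above JAL22 in the same libraries, while the alkaline phosphatase-like genes AT4G29700 (35.2 to 39.7 in the 6 high libraries) and AT4G29690 (5.31 to 10.5) differed less. FMO GS-OX1 was paired with AAE12, an acyl-activating enzyme gene at 0.0192, 0.0569 and 0.0422 FPKM in the WT libraries, 3.10, 3.28 and 3.25 in those of ccr, 37.5, 28.5 and 37.5 in those labelled fer and 8.30, 6.44 and 12.1 in those of ccrfer. The other pairs were AT1G54010 with AT1G54020, AT1G63295 with AT1G63310, AT2G38380 with AT2G38390, and AT3G52870 with AT3G52900. AT1G63295, a remorin gene, was at 0.413, 0.182 and 0.203 FPKM in the WT libraries, 1.52, 2.48 and 1.29 in those of ccr, 12.4, 16.6 and 12.4 in those labelled fer and 15.8, 8.29 and 10.3 in those of ccrfer.

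Across the genome 41 members lay on chromosome 1 (34.2%, against 26.3% of tested genes), 21 on chromosome 2, 20 on chromosome 3, 16 on chromosome 4 and 22 on chromosome 5. Within 1 Mb of FER there were 2 members (1.67%), AT3G52870 and AT3G52900, and 2.22% of tested genes. AT3G52870, a calmodulin-binding protein gene, was at 1.31, 1.23 and 0.983 FPKM in the WT libraries, 3.59, 3.65 and 3.76 in those of ccr, 12.1, 12.1 and 12.1 in those labelled fer and 8.61, 7.40 and 10.4 in those of ccrfer. AT3G52900 was at 1.47, 0.919 and 1.57 FPKM in the WT libraries, 5.82, 7.74 and 10.9 in those of ccr, 23.9, 22.3 and 17.4 in those labelled fer and 21.7, 18.2 and 20.8 in those of ccrfer. Of the 120 members, 11 shared a stretch of 75 bases, the read length, with another transcript, and for 1 of them, the receptor-like kinase gene CRK22, such stretches made up 11.5% of its transcript. A further check found 20 members that overlap an annotated gene on the other strand, among them JAZ10, XCP1, LAC11, IGMT5 and CYP81F4. The authors' deposited table of selected genes contained 0 of the 120.

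Levels of single members differed between the 2 high genotypes, in both directions. The ccrfer mean was below the fer mean in 75 members and above it in 45, and the median difference was -0.18 over members and -0.01 over tested genes. Every ccrfer library lay below every library labelled fer in 42 members and above in 17. These counts were not taken over all tested genes, so they describe the members alone. AT1G31710 (-1.93), AAE12 (-1.86) and DOT1 (-1.77) were the members lowest in ccrfer relative to the libraries labelled fer. AT1G31710 was at 1.37, 1.41 and 1.41 FPKM in the WT libraries, 0.807, 0.717 and 0.466 in those of ccr, 24.9, 23.8 and 30 in those labelled fer and 6.71, 6.81 and 4.95 in those of ccrfer. THI2.1 (1.58), CYP81F4 (1.46) and AT2G38380 (1.25) were the highest. The peroxidase gene AT2G38380 was at 0.544, 0.303 and 0.50 FPKM in the WT libraries, 0.495, 0.446 and 0.645 in those of ccr, 2.82, 2.02 and 1.97 in those labelled fer and 5.31, 8.37 and 6.80 in those of ccrfer. By role, the jasmonate members lay furthest below (median -1.07), then the ER body members (-0.48), while the xylem and wall members were level (0.07).

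**Figure D4:**
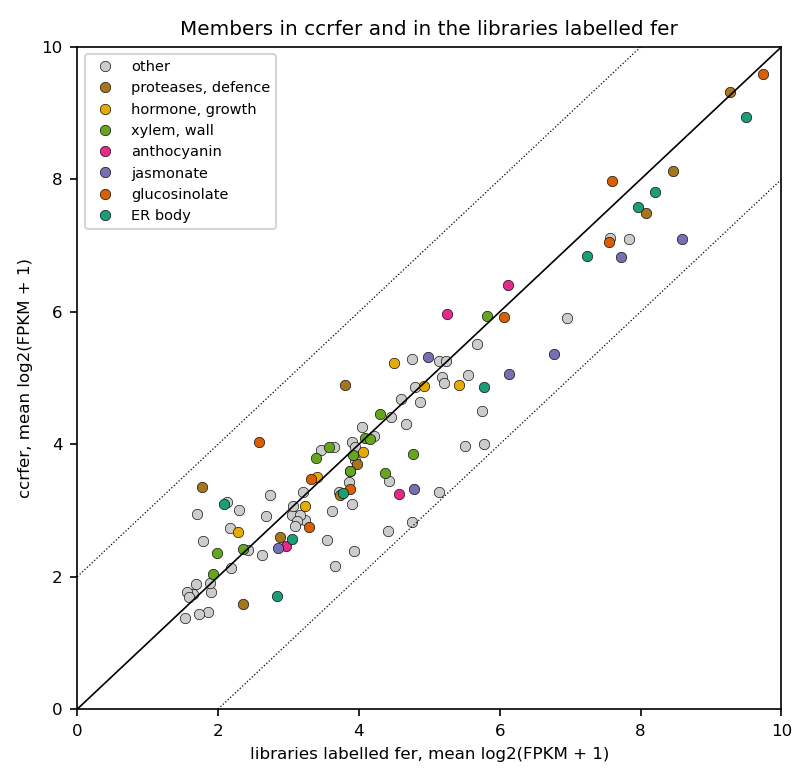
Mean log2(FPKM + 1) of the 120 members in the libraries labelled fer (horizontal) and in ccrfer (vertical), coloured by role group. The solid line marks equal levels and the dotted lines a difference of 2, the limit set by the rule. Of the points, 75 lie below the solid line and 45 above it, and the jasmonate genes are mostly below.

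Within the high genotypes, single libraries differed in how often they were the extreme. Among the 6 libraries, ccrfer replicate 3 was the lowest for 33 members and fer replicate 1 for 9, while fer replicate 3 was the highest for 28 and ccrfer replicate 1 for 13. Genes listed at 0 numbered 7101, 6242 and 9582 in the ccrfer libraries and 6318, 8216 and 7625 in those labelled fer. They numbered 6064 to 6686 in the WT and ccr libraries. The part of this difference in the members' levels was not tested. The median SD of members on the log2(FPKM + 1) scale was 0.11 in WT and in ccr, 0.15 for the libraries labelled fer and 0.25 for ccrfer, beside 0.08, 0.08, 0.15 and 0.20 over all tested genes. Without ccrfer replicate 3 the rule found 118 genes, of which 107 were among the 120.

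Lists tied to FERONIA and to abscisic acid gave no members. Of 18 tested genes of the FERONIA family and its partners, the comparison of the libraries labelled fer with WT called 9 higher and 2 lower, and that of ccrfer with ccr called 3 higher and 4 lower, FER among the latter. Of all tested genes 28.4% and 10.4% were called higher and 23.2% and 10.1% lower in these contrasts. Of 12 tested abscisic acid, cold and drought genes, 3 were called higher and 7 lower in the first contrast, and 1 higher and 7 lower in the second. HAI2, a phosphatase gene induced by abscisic acid, had means of 26.9 FPKM in WT and 50.9 in ccr, against 8.0 in the libraries labelled fer and 20.9 in the ccrfer libraries. These contrasts share control libraries with the ccr minus WT contrast, since the libraries labelled fer were set against the same WT libraries and ccrfer against the same ccr libraries.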

How the data were processed

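Per the submitters' processing notes, TAIR10 was the build, and Bowtie2 2.3.2.0, TopHat2 2.1.1, Cufflinks 2.2.1 and Cuffdiff were the tools. Per the file headers, the authors' FPKM table lists 27655 genes for each of the 12 libraries. The read report held counts of reads per library and the mapped fraction, both deposited by the authors, and 91.4% to 94.2% of reads were mapped. A smaller table gave the authors' log2 ratios to WT and p-values, per the file headers, and was used only to look up members. Gene-level depth is unknown, and a value of 0 means listed at 0. No normalization between libraries was named, and scaling factors computed from the values lay between 0.980 and 1.02.

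The rule was applied to log2(FPKM + 1), which compresses differences between low values. The ccr minus WT contrast was taken from a limma 3.58.1 model (R 4.3.3) of 4 genotype means over the 12 libraries, with trended empirical Bayes moderation. Two-sided p-values received a Benjamini-Hochberg adjustment over the 18428 genes that reached 1 FPKM in 3 or more libraries, a call means an adjusted p under 0.05, and SE is the model's standard error. The model was tested on simulated data of 18428 genes for ccr minus WT. It recovered 100 of 100 genes changed by 1 and 81 of 100 changed by 0.5 on the log2 scale, with 5 false calls. The rate of false calls in the measured libraries was not tested. In these the median SD over tested genes was 0.08 in WT and in ccr, 0.15 for the libraries labelled fer and 0.20 for ccrfer.

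The members, the 9 pathway lists and the 9 marker lists were chosen with earlier results of these data known. The 7 role groups, which hold 57 members, and some of the members named in them were chosen after their values were seen. Other named members had the largest margins, levels, ccr minus WT or ccrfer minus fer differences, stood in a list, lay beside another member or belonged to a family of 3 or more. Symbols, products, coordinates and sequences came from the RefSeq annotation of TAIR10.1, which had an entry for all 120 members and for 18265 tested genes. Of 312 deposited genes with coordinates, 312 overlapped the annotated gene. Alternatives were pseudocounts of 0.1 and 5, other filters, scalings and margins, each library left out in turn, a fit of WT and ccr only, AT2G01021 as a covariate, no trend and a replicate block.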

Additional observations from a re-analysis of the deposited data

How the results depend on the processing

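The number of genes meeting the rule moved most with the scale and the margin. It was 190 with a pseudocount of 0.1 (118 of them among the 120), 48 with a pseudocount of 5 (47 among the 120), 382 with a margin of 0.5 and 17 with a margin of 2. With median-of-ratios scaling it was 118 and after quantile normalization 116. With each library left out in turn it ranged from 115 to 126, and 85 of the 120 were found in all 12 of these settings. Of the 120, 44 were found under all 18 settings that changed the pseudocount, the filter or the normalization or left a library out. The margin and the limit between fer and ccrfer were kept in these settings. Members called lower in ccr than in WT numbered 7, and 3 with a pseudocount of 5, 12 with only WT and ccr libraries in the fit and 4 to 10 with a library left out (4 without ccr replicate 1). Tested genes called lower numbered 3642, and 5484 with only WT and ccr libraries. Members called higher (58) ranged from 47 to 61 with a library left out and were 41 with a pseudocount of 5. No call of a member changed sign in the 22 alternatives, while 125 pairs of a member and an alternative lost it. The cause was not tested.

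Libraries that share a replicate number were not paired by it. Less their genotype means, 18 such pairs correlated between -0.13 and 0.19, and 4 of 12 libraries correlated best with their own number. With a replicate block, the calls between ccr and WT were 55 members higher and 6 lower.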
